A study of Homo sapiens with 4 samples.

Results

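GABRP, ISL1, HAND1 and KRT18, 4 genes used as markers of amnion and trophectoderm, were followed on the 12 microarrays of an RNAi study in NCCIT cells. NCCIT is an established human embryonal carcinoma (hEC) line, the malignant counterpart of pluripotent stem cells. The cells had been transfected with esiRNA, an enzymatically prepared pool of short interfering RNAs, against OCT4, NANOG or SOX2 and were harvested at day 2.5. Mock cells of the same line, seeded at the same density, received the transfection reagent without any esiRNA. Each of the 4 groups was represented by 3 arrays, which the labels describe as biological replicates. All groups thus come from 1 cell line, and the mock group does not control for an unrelated esiRNA. For NANOG the labels do not say which esiRNA pool was used.

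Each of the 4 genes was read by 1 probe: GI_7657105-S for GABRP, GI_4504736-S for ISL1, GI_4758505-S for HAND1 and GI_40354193-A for KRT18, out of 47289 probes on the array. They were chosen from these same arrays by whether they were detected in each group and by the size of their difference from mock in each knock-down. Those values are therefore given as a description without a test. The comparison of the OCT4 with the SOX2 knock-down was not used in the choice and was tested.

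The amnion and the trophectoderm are extraembryonic epithelia, one enclosing the embryo and the other giving rise to the placenta. GABRP is the pi subunit of the GABA-A receptor, a chloride channel family best known from inhibitory synapses, and this subunit is found mainly outside the nervous system. ISL1 is a LIM homeodomain transcription factor that acts in heart, motor neuron and pancreas development as well as in amnion. HAND1 is a basic helix-loop-helix transcription factor required for trophoblast giant cells in mouse and for the heart and extraembryonic mesoderm. KRT18 is the type I keratin that pairs with the type II keratin KRT8 to form the filaments of simple epithelia, and trophectoderm is an early cell layer that makes them. None of the 4 is exclusive to these tissues.

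The bases directly upstream of the transcription start are shown for GABRP, ISL1 and HAND1. No such sequence was available here for KRT18. The sequences are from RefSeq (GRCh38.p14) and are the 250 bases before the start, 5′ to 3′ on the strand of the gene. Capitals mark the E-box CANNTG, the TATA box (TATAAA or TATATA) and the CCAAT box (CCAAT), each searched on both strands, and no marked motif overlaps another.
GABRP, chr5:170783475-170783724, plus strand: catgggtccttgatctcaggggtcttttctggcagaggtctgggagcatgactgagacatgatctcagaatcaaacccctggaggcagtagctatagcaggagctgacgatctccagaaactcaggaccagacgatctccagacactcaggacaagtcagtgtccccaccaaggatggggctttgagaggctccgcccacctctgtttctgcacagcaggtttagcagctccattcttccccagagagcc
ISL1, chr5:51383198-51383447, plus strand: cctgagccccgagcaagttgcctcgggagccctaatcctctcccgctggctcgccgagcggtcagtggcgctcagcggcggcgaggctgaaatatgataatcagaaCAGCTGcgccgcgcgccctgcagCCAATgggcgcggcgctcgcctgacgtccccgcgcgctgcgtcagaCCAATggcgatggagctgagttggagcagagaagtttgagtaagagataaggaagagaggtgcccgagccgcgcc
HAND1, chr5:154478228-154478477, minus strand: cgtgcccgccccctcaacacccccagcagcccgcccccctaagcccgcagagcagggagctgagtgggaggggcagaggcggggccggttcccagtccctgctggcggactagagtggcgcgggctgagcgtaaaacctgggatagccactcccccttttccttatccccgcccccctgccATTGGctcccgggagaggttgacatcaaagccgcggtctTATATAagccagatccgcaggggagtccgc

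All 3 windows lie on chromosome 5. In the ISL1 window an E-box began 144 bases before the start and CCAAT boxes 121 and 75 bases before it. In the HAND1 window a CCAAT box, on the opposite strand, lay 69 bases and a TATA box 30 bases before the start. No marked motif was found in the GABRP window. Neither the POU octamer ATGCAAAT nor the SOX core CNTTGT, searched on both strands, was present in any of the 3 windows. Over 35116 RefSeq promoter windows of the same length, the octamer was found in 1.63%, the SOX core in 30.9%, the E-box in 61.8%, the TATA box in 12.8% and the CCAAT box in 32.0%. These matches describe letters and not bound sites.

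Signals were background-corrected, quantile normalised between arrays and put on the log2 scale, which is called the level. A probe was taken as detected on an array when its detection value, which is 1 minus the detection p-value of the scanner software, was at least 0.99. Across the series, 11196 to 12858 of the 47289 probes were detected per array, and arrays of 1 group correlated at r = 0.993 to 0.997 over 9899 probes. OCT4 and NANOG fell in the cells labelled as their knock-downs. OCT4, listed as POU5F1, went from 9.25 ± 0.13 (log2, SD, n = 3) in mock to 5.05 ± 0.30 in its knock-down, where it was detected on 1 of 3 arrays (adjusted p = 7.79e-11, limma), and was at least 15.2-fold lower in the SOX2 knock-down. Such limits apply where no array of a group detected the probe, and each dim array then contributed the higher of its dimmest detected level and the level of the probe itself. NANOG went from 8.42 ± 0.090 to 6.57 ± 0.084 in its knock-down, 3.60-fold lower (adjusted p = 1.29e-07), and was at least 9.34-fold and 8.52-fold lower in the OCT4 and SOX2 knock-downs. NANOG transcript thus remained detected in the NANOG knock-down. The probe of SOX2 had no name here, so the SOX2 label was not checked by its own gene. The paper states that SOX2 lay below detection on its arrays, and it followed SOX2 by real-time PCR and Western blot instead.

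Whether each gene was on or off was read first from the raw signals. GABRP was detected on 8 of 12 arrays, ISL1 on 11 of 12, and HAND1 and KRT18 on all 12. GABRP was the gene that was off in mock cells, with detection values of 0.762, 0.859 and 0.722 on the 3 mock arrays. ISL1 was at the edge of detection there, at 0.9901, 0.993 and 0.999. In the NANOG knock-down GABRP was detected on 2 of 3 arrays (0.987, 0.998 and 0.996) and ISL1 also on 2 of 3 (0.995, 0.995 and 0.971). In the OCT4 and SOX2 knock-downs all 4 genes were detected on every array.

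**Figure D1:**
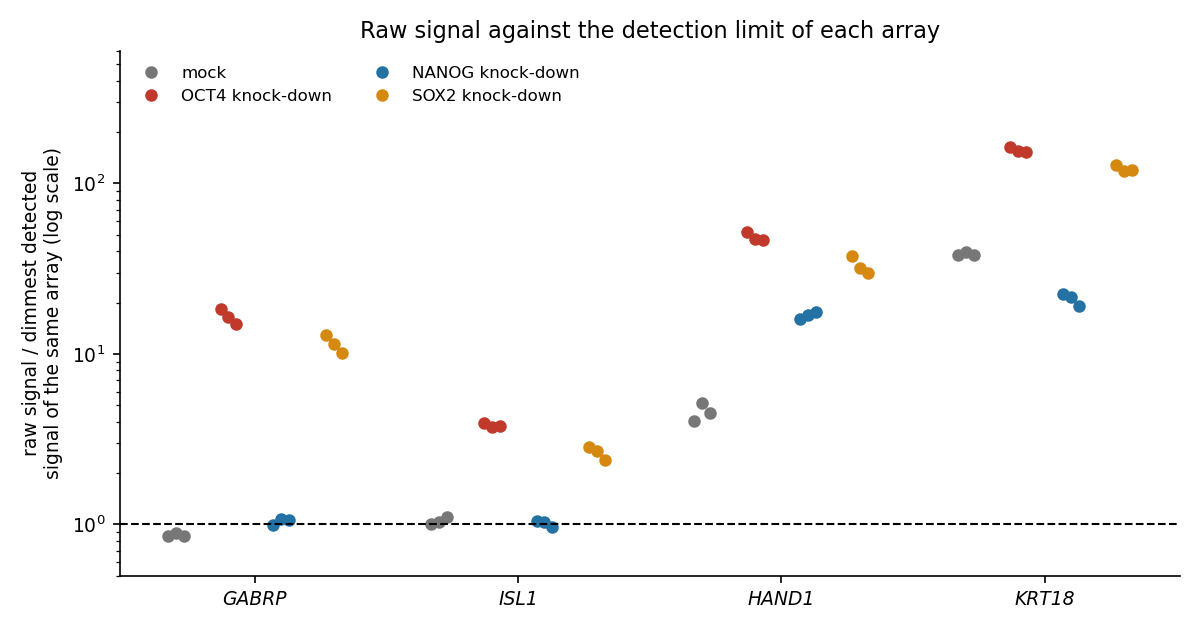
Raw signal of the 4 genes on each array, divided by the dimmest detected signal of the same array (log scale; dashed line, 1). Each point is 1 of the 12 arrays. GABRP lay under the line on all 3 mock arrays, GABRP and ISL1 lay close to it in the NANOG knock-down, and HAND1 and KRT18 lay above it everywhere.

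For GABRP, the raw signal was 105.6, 101.6 and 99.5 on the mock arrays and 2673.9, 2259.2 and 2021.9 on the arrays of the OCT4 knock-down. It was 1750.5, 1515.7 and 1300.3 in the SOX2 knock-down and 124.3, 134.4 and 126.0 in the NANOG knock-down. The OCT4 and SOX2 knock-downs thus stood far above every other array, while the NANOG knock-down lay just above mock. After normalisation, the mean level of GABRP on the log2 scale was 4.71 ± 0.071 (SD, n = 3) in mock, 10.76 ± 0.089 in the OCT4, 5.54 ± 0.28 in the NANOG and 10.53 ± 0.080 in the SOX2 knock-down. No array of any knock-down overlapped the mock arrays, but the mock values lie in the noise and have only an upper limit.

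The rise of GABRP is therefore given as a lower limit. GABRP was at least 39.8-fold higher in the OCT4 knock-down and at least 33.9-fold higher in the SOX2 knock-down than in mock. The measured differences of 6.05 and 5.82 on the log2 scale include mock values at background. For the NANOG knock-down the measured difference was 0.83 and the limit was at least 1.07-fold. With the normalised means the authors deposited, this last difference was 0.25, and with median scaling 0.50. In these bulk samples, a higher level in every cell and a larger share of expressing cells cannot be told apart.

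For ISL1, the raw signal was 124.0, 119.1 and 128.0 in mock, 571.7, 508.9 and 509.1 in the OCT4 knock-down and 384.7, 354.1 and 307.4 in the SOX2 knock-down. The NANOG knock-down gave 131.5, 128.4 and 114.8, of which 2 arrays lay just above and 1 just below the mock arrays. The normalised log2 levels were 5.70 ± 0.24 (SD, n = 3) in mock, 8.35 ± 0.028 in the OCT4, 5.41 ± 0.23 in the NANOG and 7.997 ± 0.067 in the SOX2 knock-down. ISL1 was 6.29-fold higher in the OCT4 knock-down than in mock (log2 difference 2.65 ± 0.14, SE, rank 114 of the rises) and 4.92-fold higher in the SOX2 knock-down (2.30 ± 0.14, rank 173). In the NANOG knock-down the difference was -0.29 ± 0.19 and the arrays overlapped those of mock. Since ISL1 lay at the detection limit in mock, its fold values depend on the background treatment more than those of HAND1 and KRT18.

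HAND1 was already expressed in mock cells, with raw signals of 497.7, 591.4 and 521.5. They were 7557.7, 6453.1 and 6256.3 in the OCT4 knock-down, 5111.4, 4177.8 and 3835.4 in the SOX2 knock-down and 2007.0, 2107.8 and 2109.1 in the NANOG knock-down. HAND1 was thus the gene of the 4 that stood clearly above mock in all 3 knock-downs, and no 2 groups overlapped. Its normalised log2 levels were 9.17 ± 0.096 (SD, n = 3) in mock, 12.38 ± 0.017 in the OCT4, 11.05 ± 0.17 in the NANOG and 12.13 ± 0.11 in the SOX2 knock-down. The differences from mock were 3.20 ± 0.056 (SE, 9.21-fold, rank 66) in the OCT4 knock-down, 2.96 ± 0.084 (7.79-fold, rank 84) in the SOX2 knock-down and 1.87 ± 0.11 (3.67-fold) in the NANOG knock-down. With rank 14 of 12374, HAND1 was among the largest rises of the NANOG knock-down, although the difference was smaller there than in the other two.

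KRT18 was bright on every array. Its raw signal was 4720.9, 4574.0 and 4388.4 in mock, 23752.5, 21165.3 and 20604.2 in the OCT4 knock-down and 17373.5, 15531.5 and 15520.8 in the SOX2 knock-down. In the NANOG knock-down it was lower than in mock on all arrays, at 2822.9, 2669.9 and 2280.7. The normalised log2 levels were 12.35 ± 0.070 (SD, n = 3) in mock, 14.11 ± 0.026 in the OCT4, 11.38 ± 0.049 in the NANOG and 14.07 ± 0.026 in the SOX2 knock-down. KRT18 was 3.38-fold higher in the OCT4 knock-down (1.76 ± 0.043, SE, rank 298) and 3.30-fold higher in the SOX2 knock-down (1.72 ± 0.043, rank 322), and it was 1.95-fold lower in the NANOG knock-down (-0.96 ± 0.049, rank 149 of the falls). RefSeq lists 68 KRT18 pseudogenes, and whether the probe also reads transcripts of such near-identical copies was not tested.

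**Figure D2:**
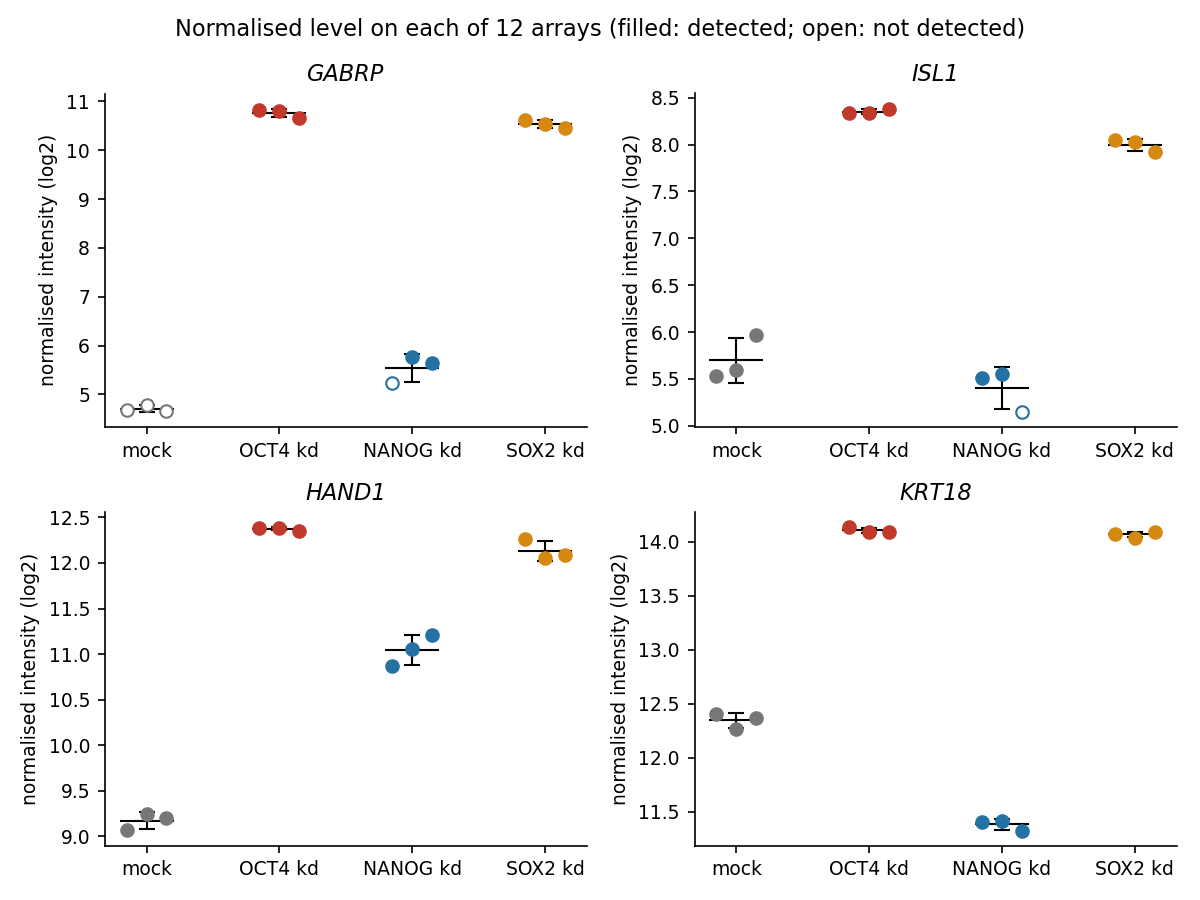
Normalised intensity (log2) of GABRP, ISL1, HAND1 and KRT18 on each of the 12 arrays by group (kd, knock-down). Points are arrays, filled where the probe was detected, and lines and bars are mean and SD of 3 arrays. The axes differ between genes and do not start at 0. The OCT4 and SOX2 knock-downs were highest for all 4 genes, while the NANOG knock-down lay between mock and these for HAND1 and under mock for KRT18.

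The 4 genes had the same groups at the top and different orders below. In each, the OCT4 and SOX2 knock-downs had the highest means, and the difference between these did not pass the test for any of them. GABRP and HAND1 then followed in the NANOG knock-down and last in mock, whereas ISL1 and KRT18 were lowest in the NANOG knock-down, for ISL1 without separation from mock. Bead-to-bead variation within an array was small, with a bead SD of 1.95 to 5.03% of the signal for GABRP, 2.18 to 4.36% for ISL1, 1.92 to 3.18% for HAND1 and 1.92 to 3.72% for KRT18. Over all 12374 tested probes the median log2 difference from mock was -0.031 in the OCT4, 0.0068 in the NANOG and -0.041 in the SOX2 knock-down. All 3 comparisons share the same mock arrays.

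**Figure D3:**
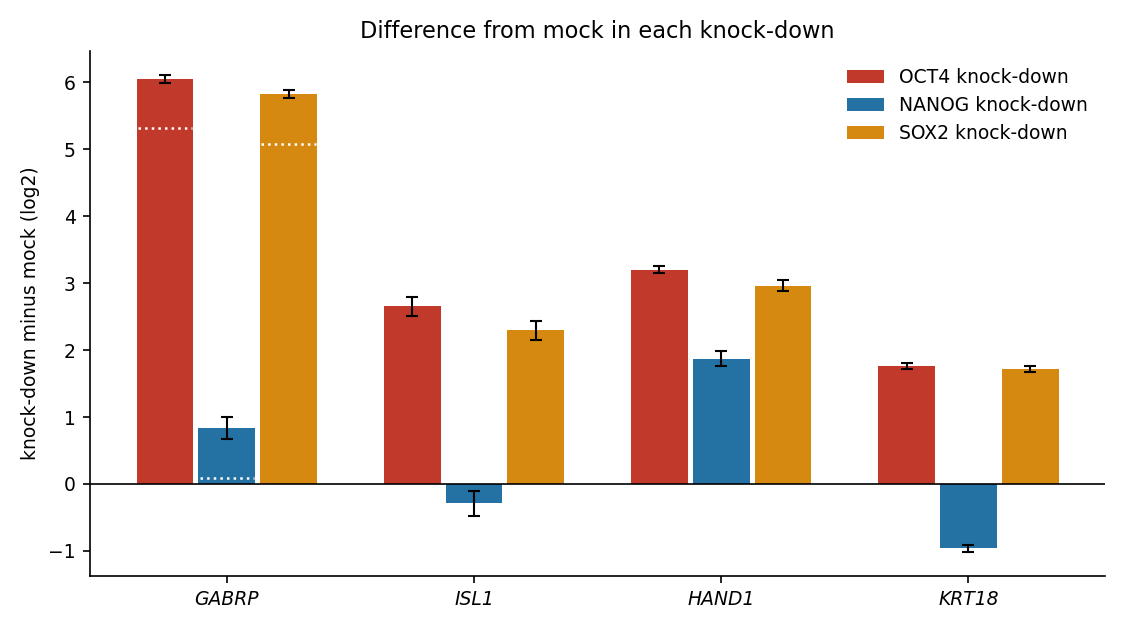
Difference from mock in normalised intensity (log2) for the 4 genes in each knock-down; bars start at 0 and error bars are SE from 3 arrays per group. White dotted lines give the lower limit for GABRP, which was not detected in mock. Bars reached 6.05 for GABRP, and those of the NANOG knock-down were below 0 for ISL1 and KRT18.

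Just how alike the OCT4 and SOX2 knock-downs were for these genes was tested directly between the 6 arrays. The difference, OCT4 minus SOX2 knock-down, was 0.35 ± 0.12 (log2 ± SE) for ISL1, with a 95% interval of 0.082 to 0.62. It was 0.24 ± 0.092 for HAND1 (0.041 to 0.44), 0.23 ± 0.12 for GABRP (-0.027 to 0.48) and 0.037 ± 0.063 for KRT18 (-0.10 to 0.17). The arrays of the OCT4 knock-down lay above all those of the SOX2 knock-down for GABRP, ISL1 and HAND1, and those of KRT18 overlapped. None of the 4 differences passed the limma test after Benjamini-Hochberg adjustment over all tested probes, with adjusted p-values of 0.347 for ISL1, 0.400 for HAND1, 0.578 for GABRP and 0.925 for KRT18. The intervals for GABRP, HAND1 and KRT18 exclude a 1.5-fold difference (0.58 on the log2 scale) in either direction, but that for ISL1 does not.

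In this comparison 0 of 12374 probes, or 0%, passed an adjusted p below 0.01 together with a 1.5-fold change by limma. At an unadjusted p below 0.05, 1210 probes passed by limma and 1157 by the methods' t-test, and 1 probe was called by the latter after adjustment. The count became 3 when the third SOX2 array was left out and 1 without the second mock array. The smallest adjusted p of any probe by limma was 0.0603. Across all tested probes the difference had a median of -0.0074, with 5th and 95th percentiles of -0.21 and 0.29. GABRP and HAND1 lay inside this range and ISL1 just above it.

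**Figure D4:**
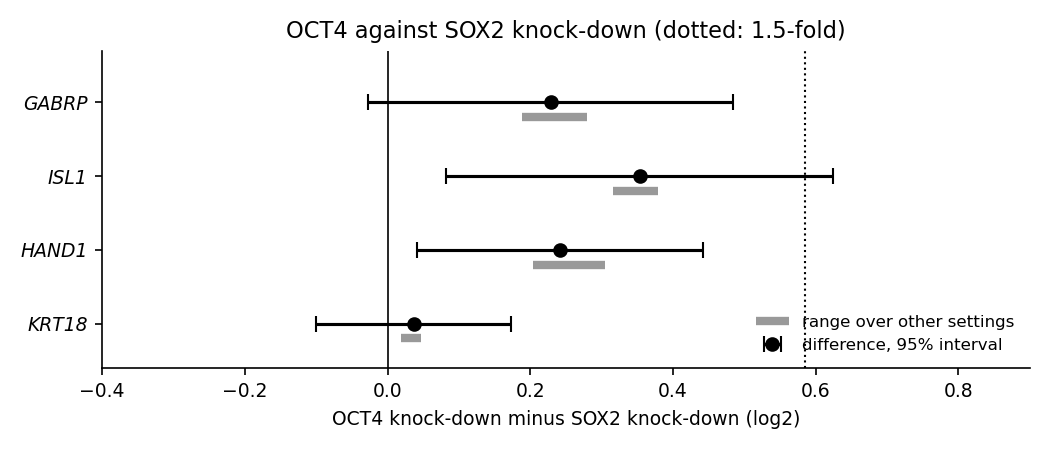
Difference between the OCT4 and SOX2 knock-downs in normalised intensity (log2) for the 4 genes. Points are differences of 3 against 3 arrays with 95% intervals. Grey bars are the range over 19 other settings that give an adjusted p, without the authors' means. The solid line is 0 and the dotted line 1.5-fold. The intervals of GABRP and KRT18 span 0, and only that of ISL1 reaches the dotted line.

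Related genes were read from lists built around the 4 genes. The array files hold probe identifiers only, and names were available for 2985 probes that the study had listed as changed. Of 94 genes on 6 lists, 25 had a named probe. These counts concern genes already selected for a change on these arrays and are not independent evidence of its direction. A gene was called by limma at an adjusted p below 0.01 and a measured change of at least 1.5-fold. Where a group had no detected array, the limit of a called gene can be under 1.5-fold. Examples are DLX3 in the NANOG knock-down (1.13-fold) and LHX1 in the OCT4 knock-down (1.41-fold). Of the 25 genes, 20 were called higher and 4 lower than mock in the OCT4 knock-down, 6 higher and 3 lower in the NANOG knock-down, and 18 higher and 4 lower in the SOX2 knock-down. Of all 12374 tested probes, 13.6% were called higher and 10.7% lower in the OCT4, 4.61% and 4.02% in the NANOG, and 13.3% and 10.3% in the SOX2 knock-down. With median scaling in place of quantile normalisation the OCT4 split turned, from 1686 higher and 1319 lower probes to 1378 and 1721, and the NANOG split from 570 and 498 to 445 and 552. The median difference of all probes in the OCT4 knock-down was then -0.12.

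Among amnion-associated genes, 9 of 15 were named, and all 9 rose in both the OCT4 and the SOX2 knock-down (median log2 differences 1.91 and 1.93, or 1.86 and 1.81 with genes undetected in mock set at their limit). TBX3, a T-box repressor, was undetected in mock and rose at least 6.43-fold in the OCT4 and at least 6.02-fold in the SOX2 knock-down (adjusted p = 4.2e-12 and 4.76e-12, limma). Its second probe, also undetected in mock, rose at least 1.25-fold in the OCT4 and at least 1.004-fold in the SOX2 knock-down. VTCN1, an immune checkpoint ligand made by amnion and trophoblast, rose at least 3.87-fold and at least 3.50-fold, also from an undetected level. The ligand BMP4, which drives stem cells towards extraembryonic fates in culture, rose by log2 2.15 ± 0.098 (SE) and 1.93 ± 0.098. The IGF-binding proteins IGFBP3 and IGFBP7 rose as well, IGFBP3 at least 3.63-fold and 3.87-fold, and IGFBP7 by log2 1.91 and 2.02.

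After silencing of NANOG the same list had 1 gene called higher and 1 lower, with a median of 0.061. These were MEIS2, a homeobox cofactor, at 0.95 (adjusted p = 5.02e-05), and the matrix protein tenascin C, TNC, which fell at least 4.93-fold to an undetected level (adjusted p = 1.87e-08). Both were picked after their values had been seen. TNC had risen by 0.70 in the OCT4 and 0.79 in the SOX2 knock-down.

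The trophoblast list had 3 named genes of 24, and they did not move together. DLX3, a homeobox factor of placenta and skin, was undetected in mock and rose at least 2.02-fold, 1.13-fold and 1.90-fold in the knock-downs of OCT4, NANOG and SOX2. GATA3, a zinc finger factor of trophectoderm, rose by 0.63 ± 0.069 (log2 ± SE) in the OCT4 knock-down, fell by 0.65 ± 0.069 in the NANOG knock-down and, at 0.47 ± 0.069, did not reach 1.5-fold in the SOX2 knock-down. TFAP2A, an AP-2 factor active in trophoblast, went the other way: it rose by 1.58 ± 0.11 in the NANOG knock-down (adjusted p = 7.81e-07) and fell by 1.07 ± 0.11 in the OCT4 knock-down (adjusted p = 4.54e-06) and at least 1.71-fold in the SOX2 knock-down. The remaining 21 genes of the list, CDX2 and KRT7 among them, had no named probe and were not analysed here. For CDX2 and KRT7 the paper reports no significant array expression in any of the knock-downs. By PCR it reports a transient induction of both after OCT4 silencing, and it concludes that NCCIT cells did not become trophoblast. Instead the paper describes mesodermal traits after silencing of OCT4 and SOX2, and it lists HAND1 and BMP4 among its mesoderm markers. Amnion and trophectoderm are therefore used only as a working name for the 4 genes.

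The 3 named keratins of 6 besides KRT18 all rose in the OCT4 and SOX2 knock-downs. KRT8, its filament partner, had normalised log2 levels of 12.16 ± 0.13 (SD, n = 3) in mock, 14.15 ± 0.073 in the OCT4, 11.59 ± 0.080 in the NANOG and 14.28 ± 0.055 in the SOX2 knock-down. It rose by 1.98 ± 0.081 (SE) and 2.12 ± 0.081 in the OCT4 and SOX2 knock-downs, while the NANOG difference of -0.57 ± 0.081 stayed short of 1.5-fold (adjusted p = 2.68e-04, limma). KRT19, another simple epithelial keratin, rose by 2.28 and 2.30, and KRT80 at least 2.56-fold and 2.42-fold from an undetected level. KRT19 at -0.46 (adjusted p = 0.00432) was also short of it in the NANOG knock-down, and KRT80 was undetected there as in mock.

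Of the other GABA-A receptor subunits listed, GABRA5 (alpha 5) was the 1 of 16 with a named probe, and it fell in every knock-down. The difference of GABRA5 from mock was -1.92 ± 0.099 (log2 ± SE) in the OCT4, -1.05 ± 0.099 in the NANOG and -2.11 ± 0.099 in the SOX2 knock-down.

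Among LIM homeodomain factors and LIM cofactors, relatives of ISL1 or partners of such factors, 6 of 17 were named. LHX2 rose by 2.34 ± 0.095 in the OCT4 and 2.37 ± 0.095 in the SOX2 knock-down, and LHX1 rose at least 1.41-fold and 1.15-fold. LHX5 rose by 1.14 ± 0.21 in the OCT4 knock-down, while its SOX2 difference of 0.46 ± 0.21 did not pass (adjusted p = 0.0753, limma). LDB2, a scaffold that joins LIM factors, fell (-2.15 and -2.30), and LMO4 fell by 0.60 in the OCT4 knock-down. At -0.57 in the SOX2 and -0.46 in the NANOG knock-down, LMO4 stayed short of 1.5-fold. The LIM list gene called in the NANOG knock-down was LMO1, a LIM-only cofactor picked after its value had been seen, which rose by 1.79 ± 0.22 (adjusted p = 8.71e-05) and was at least 1.10-fold lower than mock in the SOX2 knock-down (adjusted p = 0.00778), where it was undetected.

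Of the HAND partners and cardiac factors 3 of 17 were named, and all rose in the OCT4 and SOX2 knock-downs. MEF2C, a MADS-box factor of heart muscle, rose by 3.82 ± 0.12 (log2 ± SE) and 3.98 ± 0.12 and by 0.88 ± 0.12 in the NANOG knock-down. FHL2, a LIM-domain cofactor of heart muscle, rose by 1.71 and 1.70. TBX1 rose by 0.84 and 0.92, and by 0.71 in the NANOG knock-down, where its second probe, detected on 1 array and on none of mock, was not called.

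**Figure D5:**
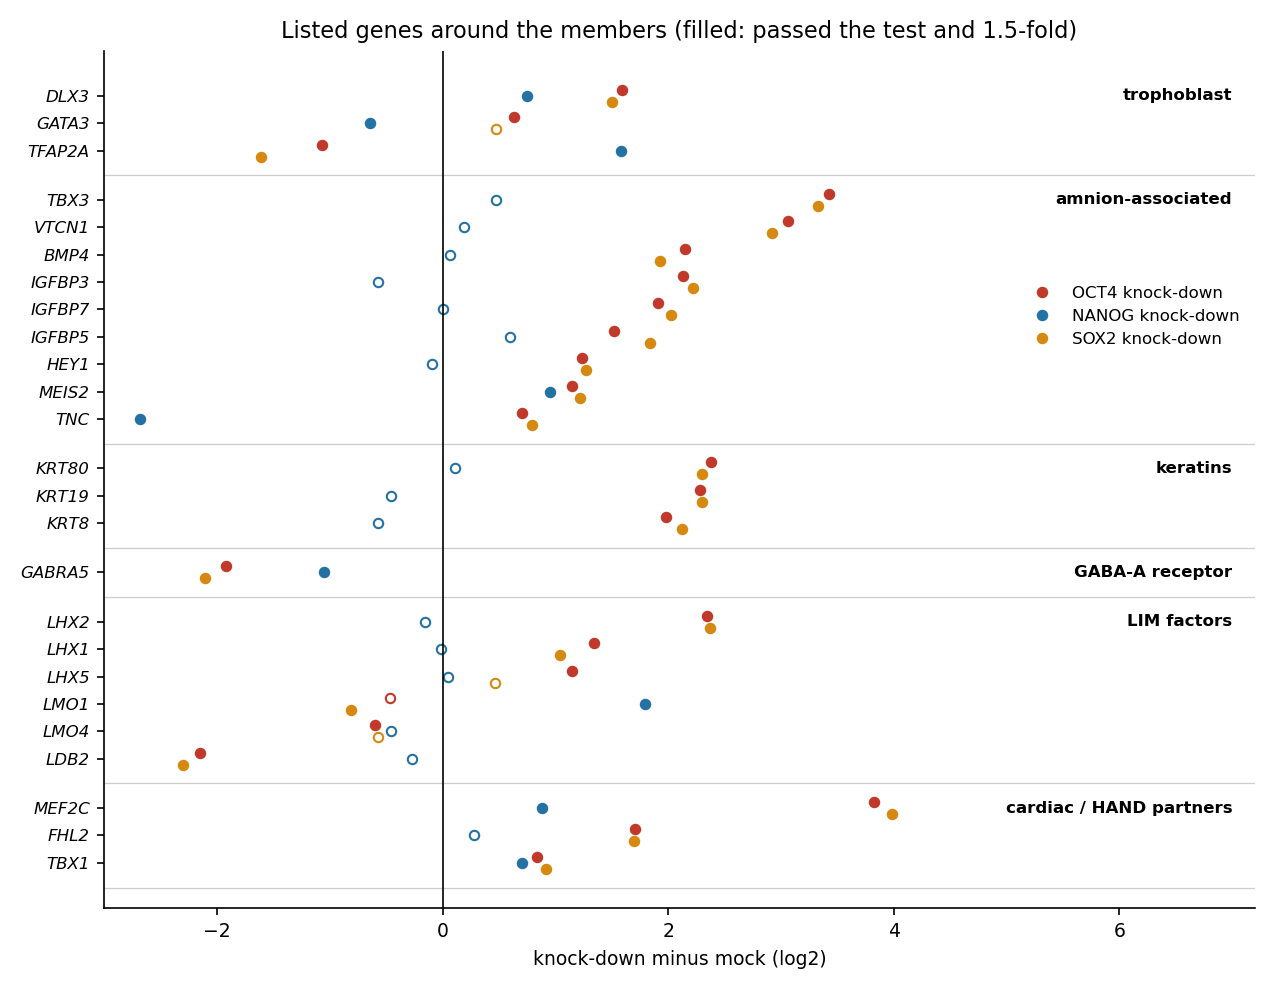
Difference from mock in normalised intensity (log2) of the 25 listed genes with a named probe, by list and knock-down. Each point is a difference of 3 against 3 arrays, filled where the adjusted p was below 0.01 and the measured change at least 1.5-fold. The OCT4 and SOX2 points lie close together, the amnion-associated genes and keratins to the right of 0 and GABRA5 to the left.

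Markers of other cells moved in the same knock-downs. Here too, names were held only for probes the study had listed as changed, so the counts are not independent evidence of a direction. Of 6 smooth and cardiac muscle markers 3 were named (ACTA2, TAGLN and ACTC1), and all 3 rose in the OCT4 and SOX2 knock-downs. Their summed normalised level was 117 to 149 on mock arrays, 3143 to 3862 in the OCT4, 181 to 228 in the NANOG and 3472 to 4346 in the SOX2 knock-down. ACTC1 was undetected on all mock and NANOG arrays, and ACTA2 was detected on 1 of 3 in each of these groups. TAGLN was the brightest of the 3 in the OCT4 and SOX2 knock-downs (log2 11.40 and 11.56) and weighs most in their sums. Of 7 embryonal carcinoma markers 6 were named, all detected on every mock array. Of these, 6 were called lower in the OCT4, 3 in the NANOG and 5 in the SOX2 knock-down. Of all tested probes, 10.7%, 4.02% and 10.3% were called lower in these knock-downs, and 13.6%, 4.61% and 13.3% higher. The markers include POU5F1 and NANOG, each silenced directly in its own knock-down and called lower there. The summed level of the 6 was 19255 to 20665 on mock arrays and 14822 to 15919 in the NANOG knock-down. It was 4864 to 5743 in the OCT4 and 4709 to 5290 in the SOX2 knock-down. DNMT3B, TDGF1 and LIN28A were brightest in mock (log2 12.97, 12.74 and 11.88) and weigh most in this sum. The part of these shifts in the values of the 4 genes was not tested. No neural or endoderm marker on the lists had a named probe.

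The probes with the most similar profile to each gene were ranked by Pearson's r over the 12 normalised values, among 2981 named probes. These correlations mostly carry the differences between the groups and are given without a test. For GABRP they were TBX3 (r = 0.999), GADD45A, a stress-induced growth arrest gene (0.999), and LMCD1, a LIM-domain cofactor (0.998). For ISL1 they were SHD, an SH2-domain adaptor (0.994), TGFBI, a matrix protein induced by TGFβ (0.993), and DNAJC1, a co-chaperone (0.993). For HAND1 they were SESN3, a sestrin (0.995), LOC145786 (0.994) and EFHD1, a calcium-binding protein (0.993). For KRT18 they were ARHGDIB (0.997), IER3, an immediate early gene (0.996), and TACC1 (0.995).

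Since the neighbours were chosen for their likeness, a shared profile follows from that choice and is no further evidence. The nearest of HAND1 and a near one of KRT18 are given as examples. SESN3 had mean log2 levels of 6.72, 10.07, 8.82 and 9.94 in the mock, OCT4, NANOG and SOX2 groups, with the NANOG knock-down in between as for HAND1. IER3 had 8.57, 11.39, 7.11 and 11.59, with the NANOG knock-down lowest as for KRT18. Among the 4 genes themselves r was highest between GABRP and ISL1 (0.97) and between ISL1 and KRT18 (0.97), and lowest between HAND1 and KRT18 (0.65). The other values were 0.92 for GABRP and KRT18, 0.90 for GABRP and HAND1 and 0.80 for ISL1 and HAND1.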

How the data were processed

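Total RNA from mock-treated and esiRNA-transfected NCCIT cells was hybridised by the authors to Illumina BeadChips, 3 arrays per group. The deposited raw files hold, per probe, an intensity averaged over beads, its bead SD and a detection value (a fraction, 1 minus the detection p-value). The authors' series values, used as an alternative, are intensity means of 3 arrays, background-subtracted and rank-invariant normalised in BeadStudio 1.0. The array slide of each sample was not given in the sources used here.

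Raw intensities were background-corrected with limma 3.58.1 (R 4.3.3; normexp with negative controls inferred from detection, offset 16), quantile normalised and log2 transformed. After these steps 4 control spots were left out. Probes detected (0.99) on all 3 arrays of at least 1 group were tested, 12374 in all. All 12 arrays entered 1 limma fit with eBayes, and p-values were adjusted by Benjamini-Hochberg. The fit was tested on simulated data. The number of arrays limits the precision. A group without a detected array gives only a bound.

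Names came from the study's supplementary probe list, held only in part, of which 2481 probes were matched to RefSeq by accession, 102 by symbol and 57 by synonym, and 345 kept their listed symbol. The members and lists were chosen with earlier results of these data known, and 1 listed gene is not reported here. Of each list, at most 5 genes called in the OCT4 or SOX2 knock-down were named, those with the largest OCT4 difference, and 3 probes of most similar profile were named per gene. For genes with several probes, the called probe or else the brightest was used. Alternatives were a floor at 20, median scaling, detection at 0.95, no filter, the methods' t-test, a fit of 2 groups, a replicate block, leaving out each array, and the authors' values.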

Additional observations from a re-analysis of the deposited data

How the results depend on the processing

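Every difference of the 4 genes from mock kept its direction with the floor at 20, median scaling, the authors' values and each array left out, the alternatives run for it. With the floor at 20, GABRP was 6.43 above mock in the OCT4 and 6.19 in the SOX2 knock-down, and ISL1 3.11 and 2.73. With median scaling, GABRP was at 5.67 in the OCT4, 0.50 in the NANOG and 5.45 in the SOX2 knock-down, HAND1 at 3.10 in the OCT4 knock-down, and KRT18 at 1.51, -1.09 and 1.49. The authors' values gave 0.25 and 5.91 for GABRP in the NANOG and SOX2 knock-downs, 3.16 and 2.86 for ISL1 in the OCT4 and SOX2 knock-downs, and 1.54, -1.10 and 1.59 for KRT18. Between the OCT4 and SOX2 knock-downs these values gave 0.16 for GABRP, 0.31 for ISL1 and 0.16 for HAND1, and turned the small difference of KRT18 to -0.048, and the cause was not tested. Over 19 alternatives with an adjusted p, its value in this comparison was 0.340 to 0.825 for GABRP and 0.128 to 0.632 for ISL1. It was 0.299 to 0.660 for HAND1 and 0.682 to 0.9897 for KRT18. By the methods' t-test without adjustment, p was 0.0011 for ISL1, 0.0193 for HAND1, 0.0295 for GABRP and 0.162 for KRT18. None of these differences reached 1.5-fold.

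The count of probes called between the OCT4 and SOX2 knock-downs was 3 with median scaling, 2 with only those groups in the fit, 20 by the methods' t-test at p below 0.01 and 1 by that test after adjustment. When single arrays were left out it ranged from 0 to 3, with 1 without mock replicate 2 and 3 without SOX2 replicate 3. The t-test after adjustment called 240 probes in the NANOG knock-down in place of 1068, and 2 list genes in place of 9. Array numbers in the file names did not pair the arrays: 18 pairs of equal number in different groups correlated at r = -0.43 to 0.44, and 2 of 12 arrays correlated best with their own number. A replicate block moved no count by over 1.5 times and changed no call of the 4 genes. Levels near the detection limit, GABRP and ISL1 in mock and in the NANOG knock-down, are the least certain.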
